A study of Mus musculus with 15 samples.

Results

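The genes described here carry out or regulate the oxidation of fatty acids in mitochondria and peroxisomes, or build peroxisomes. A list of 36 genes of the carnitine shuttle, beta-oxidation, fatty acid activation and peroxisomal import was joined by every gene in the table whose mouse symbol begins with Pex and a digit, which added 18. The 54 genes make up a small share of the 35794 Entrez IDs of the table, and 53 of them were among the 15208 genes that passed a filter on low counts. The one that did not, the pseudogene Pex13-ps, had no counts in any library, where 3 counts would have been worth between 0.0887 and 0.215 CPM, depending on the library. CPM is the read count scaled by the library's total, adjusted by a normalization factor (TMM). The values for 3 counts used the totals without this factor.

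Poly(A) RNA of perigonadal fat, the depot beside the gonads, was sequenced from C57BL/6 mice in 3 groups, whose sex the labels do not give. Weight loss mice (4 libraries) ate a 60% high-fat diet for 5 weeks from 8 weeks of age and then chow for 1 week. Obese mice (5 libraries) stayed on the 60% high-fat diet from 8 weeks of age, and lean mice (5 libraries) ate chow throughout. All were 14 weeks old, per the labels, and carried no stated transgene or deletion. The 14 libraries held 13924770 to 33807887 counts, and a fifteenth, weight loss replicate 5, held 230 and was not used. The samples are described as independent, with no statement that each is 1 animal. Summed levels of 10 adipocyte markers were 21912 to 27733 CPM in weight loss libraries, 21926 to 28342 CPM in obese libraries and 21109 to 28156 CPM in lean libraries. Markers of the epididymis, the duct beside this depot in males, differed greatly between libraries. Their 17 genes summed to 0.903 to 132.6 CPM in weight loss libraries, 11.3 to 6636 CPM in obese libraries and 1.31 to 2995 CPM in lean libraries. The 4 richest libraries were obese replicates 2, 4 and 5 and lean replicate 1.

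A long-chain fatty acid is first joined to coenzyme A by an acyl-CoA synthetase. Mitochondria take in the acyl group on carnitine and shorten it stepwise by beta-oxidation, passing electrons to the respiratory chain through electron transfer flavoprotein. Peroxisomes shorten very-long-chain and branched acyl groups with enzymes of their own, and the proteins called peroxins, products of the Pex genes, import those enzymes and let the organelle divide. In white fat most fatty acids are stored and released rather than burned, and the nuclear receptor encoded by Ppara drives many of these genes in liver.

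Between obese and lean fat, 1 of these genes rose and 3 fell, by edgeR's test with all libraries. Cpt1a, the entry enzyme of mitochondrial oxidation, was 1.75-fold as high in obese fat. Acsl1, the main acyl-CoA synthetase of adipocytes, and the peroxins Pex5 and Pex6 stood at 0.725, 0.773 and 0.674 times their lean levels. The calls of the 3 lower genes were lost without obese replicate 1, 2 or 4 and with an epididymis covariate. That of Cpt1a was kept in each of these fits. In that order the fits called 2.69%, 2.01%, 2.32% and 1.42% of all genes lower, fewer than with all libraries and no covariate. The 4 called of 53 genes are 7.55%, and 9.71% of all genes tested were called in this comparison, 5.86% higher and 3.85% lower. A gene was called when its Benjamini-Hochberg adjusted p from edgeR's quasi-likelihood test, over all 15208 genes, was under 0.05. The median log2 difference of the 53 genes, obese minus lean, was -0.13, against -0.02 over all genes, with 19 above 0 and 34 below. In all, 45 of the 53 (84.9%) differed by less than 0.5 on the log2 scale, as did 73.9% of all genes. Bulk tissue was measured, so fewer cells of a type and less RNA per cell cannot be told apart.

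Of these genes, 0 of 53 were called between weight loss and obese fat, where 1.62% of all genes were, and 0 of 53 between weight loss and lean fat, where 0.0329% were. At an unadjusted p under 0.05 the counts were 9 of 53 for weight loss against obese (14.3% of all genes) and 1 of 53 for weight loss against lean (11.4%). DESeq2 called 1, Pex5, and limma-voom 0 for weight loss against obese, where they called 4.56% and 2.03% of all genes, and each called 0 for weight loss against lean, where they called 1.67% and 0.00658%. The median log2 difference was 0.07 for weight loss minus obese, against 0.02 over all genes, and -0.06 for weight loss minus lean, against 0.003. The comparisons of weight loss and of lean fat with obese fat share the obese libraries, so their values are given side by side and are not independent. A gene that missed the threshold is not shown to be equal in both groups.

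**Figure D1:**
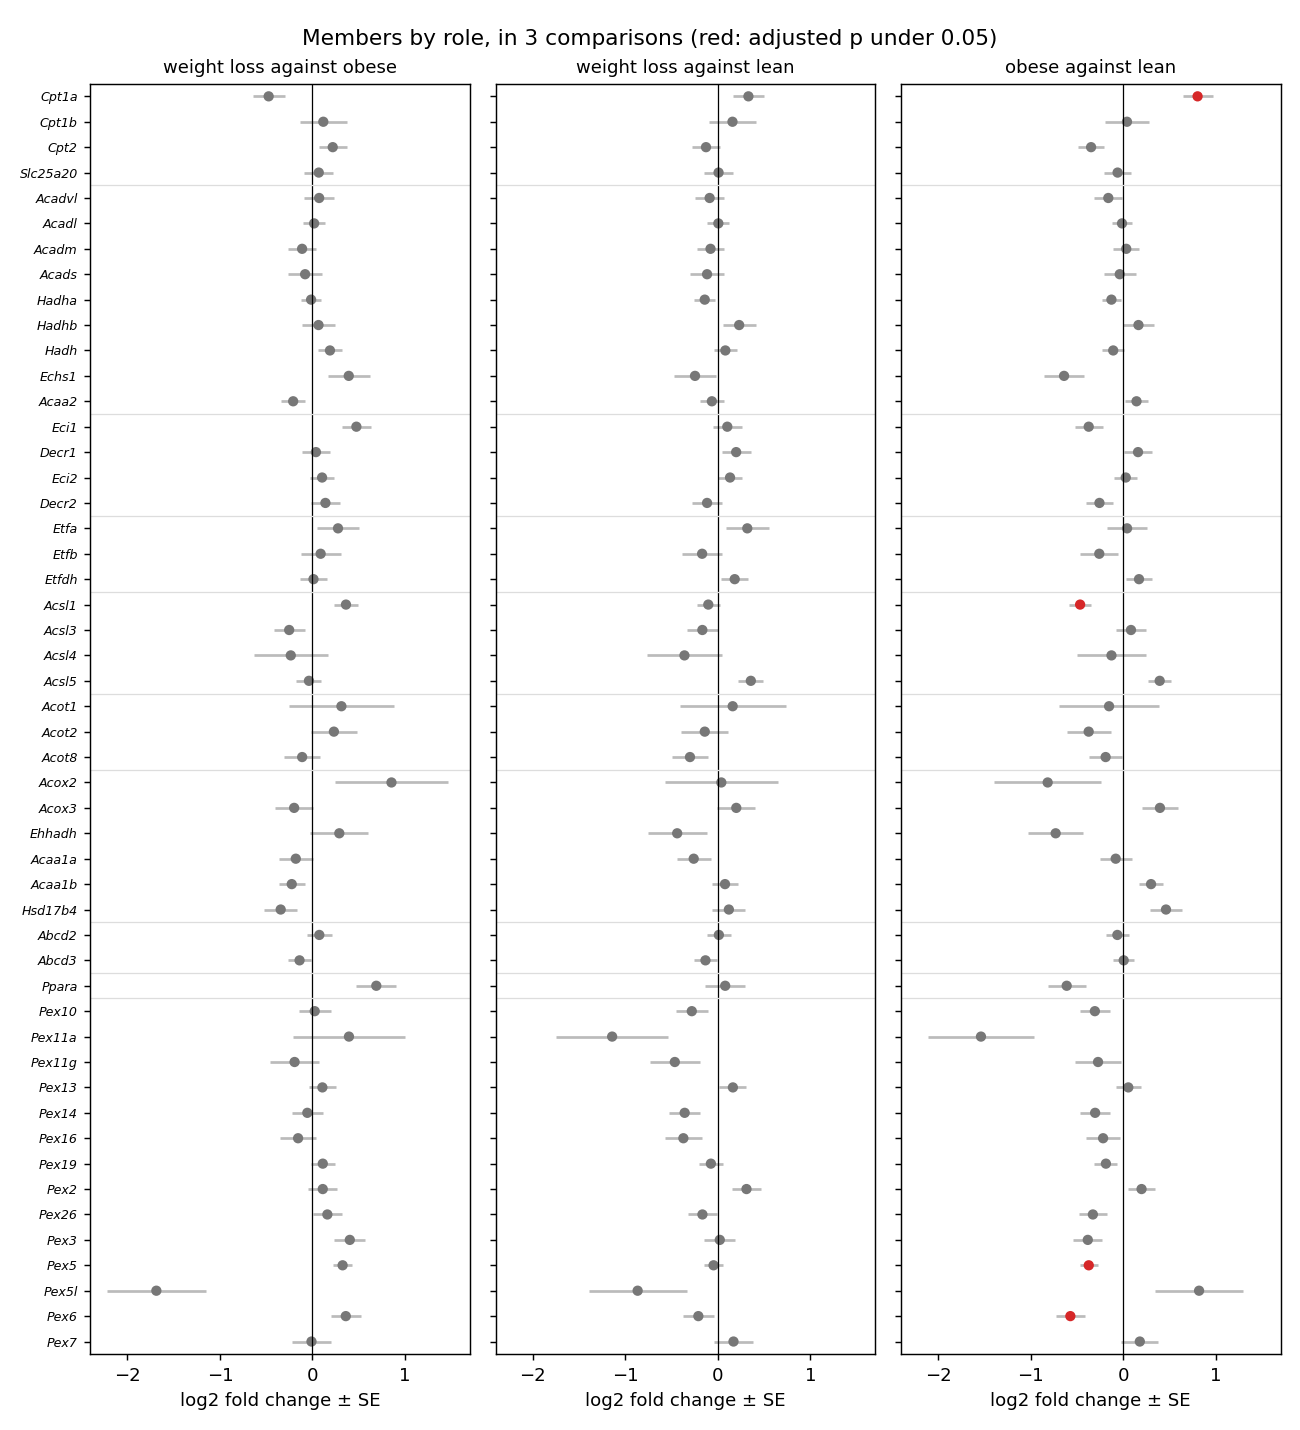
Log2 fold change with its standard error (x axis) for 50 of the genes tested (rows, by role), in one panel for weight loss against obese, one for weight loss against lean and one for obese against lean. Red marks an adjusted p under 0.05: Cpt1a lies to the right and Acsl1, Pex5 and Pex6 to the left of 0 in obese against lean, and no gene is red in the other panels.

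Cpt1a (Entrez ID 12894, chromosome 19, 3322326 to 3385735 on GRCm38.p6) encodes the carnitine palmitoyltransferase of the outer mitochondrial membrane, the rate-limiting step of long-chain oxidation. It stood at 95.1, 80.4, 94.5 and 63.9 CPM in weight loss libraries, 126, 124, 107, 121 and 101 CPM in obese libraries, and 79.3, 59.7, 69.4, 79.6 and 43.8 CPM in lean libraries. All 5 obese libraries lay above all weight loss and all lean libraries, and the weight loss range overlapped the lean range. Obese fat averaged 115.9 ± 11.2 CPM and lean fat 66.4 ± 15.1 CPM (SD, n = 5 each), a log2 difference of 0.80 ± 0.16 (standard error) with an edgeR adjusted p of 0.0069. Weight loss fat averaged 83.5 ± 14.7 CPM (SD, n = 4), -0.47 ± 0.17 on the log2 scale relative to obese fat (edgeR adjusted p = 0.21) and 0.33 ± 0.17 relative to lean fat (edgeR adjusted p = 0.48).

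The other 3 genes of the carnitine shuttle were not called in any comparison. Cpt2, which releases the acyl group inside the mitochondrion, ranged over 204 to 291 CPM in weight loss, 175 to 244 CPM in obese and 199.5 to 311 CPM in lean libraries, and its log2 difference between obese and lean fat was -0.35 ± 0.14 (edgeR adjusted p = 0.14). Cpt1b, the form known from muscle, stayed low, at 3.41 to 5.97 CPM in weight loss, 3.77 to 5.34 CPM in obese and 2.80 to 5.82 CPM in lean libraries. Per kilobase of the principal transcript, and averaged over all libraries, Cpt2 was the highest of the shuttle at 95.6 CPM per kb, followed by the carrier Slc25a20 at 38.4, Cpt1a at 20.6 and Cpt1b at 1.53 CPM per kb. In group means on that scale Cpt1a stood at 19.3 ± 3.4 CPM per kb in weight loss fat (SD, n = 4), 26.8 ± 2.6 in obese fat and 15.4 ± 3.5 in lean fat (SD, n = 5 each).

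Acsl1 (Entrez ID 14081, chromosome 8, 46471037 to 46536051 on GRCm38.p6) was the most abundant of the 4 long-chain acyl-CoA synthetases. It stood at 1116, 1396, 1239.8 and 1127 CPM in weight loss libraries, 951, 902, 1004, 869.8 and 1019 CPM in obese libraries, and 1074, 1457, 1525, 1419.8 and 1074 CPM in lean libraries. Every obese library lay below every weight loss library and every lean library, the closest being obese replicate 5 at 1019 CPM and lean replicate 1 at 1074 CPM. The log2 difference was -0.46 ± 0.12 for obese minus lean (edgeR adjusted p = 0.026), 0.36 ± 0.13 for weight loss minus obese (edgeR adjusted p = 0.19) and -0.10 ± 0.13 for weight loss minus lean (edgeR adjusted p = 0.79).

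Acsl5, a synthetase of mitochondrial and endoplasmic reticulum membranes, had the opposite sign. Its libraries held 75.1 to 94.5 CPM after weight loss, 74.5 to 104 CPM in obese and 51.2 to 76.2 CPM in lean fat. The log2 difference was 0.39 ± 0.13 for obese minus lean (edgeR adjusted p = 0.064) and 0.36 ± 0.13 for weight loss minus lean (edgeR adjusted p = 0.34), so neither was called. Its higher level in obese than in lean fat was called by DESeq2 (adjusted p = 0.036), which called 14.9% of all genes. It was also called without lean replicate 3 (edgeR adjusted p = 0.049), where 11% of all genes were. Acsl5 had the smallest unadjusted p of all these genes between weight loss and lean fat, 0.018. Acsl4, which prefers arachidonic acid and was singled out after its values were seen, was uneven between lean libraries, at 75.6, 26.8, 40.8, 128.6 and 22.8 CPM, against 38.7 to 53.0 CPM in weight loss and 44.8 to 79.4 CPM in obese libraries. Per kilobase and over all libraries Acsl1 averaged 296.5 CPM per kb, far above Acsl5 at 18.9, Acsl4 at 10.1 and Acsl3 at 2.35 CPM per kb.

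The acyl-CoA thioesterases, which undo the activation step, gave no edgeR call in any comparison. Only 3 were tested, and the largest share of all genes called was 9.71%, for obese against lean. Acot1, the cytosolic form, stood at 3.05, 13.8, 11.9 and 22.0 CPM in weight loss libraries, 8.67, 9.98, 10.9, 10.6 and 10.9 CPM in obese libraries and 19.2, 0.993, 13.6, 8.65 and 14.0 CPM in lean libraries. The spread within the weight loss and lean groups was wider than any difference between group means, and the obese libraries lay close together. Acot2, the mitochondrial form, lay at 7.45 to 12.5 CPM in weight loss, 5.86 to 9.90 CPM in obese and 5.43 to 12.6 CPM in lean libraries. Acot1 and Acot2 are near-identical neighbours on chromosome 12, and the rule that divided reads between them is not given in the sources used here, so their separate values are uncertain.

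The 9 enzymes of mitochondrial beta-oxidation gave 0 of 9 calls by edgeR in each comparison. Between obese and lean fat 9.71% of all genes were called. The share was 1.62% when weight loss fat was compared with obese fat, and 0.0329% when compared with lean fat. A count of 0 among so few genes therefore does not show that this set was unchanged. The median log2 difference of the 9 enzymes was -0.04 for obese minus lean, 0.02 for weight loss minus obese and -0.08 for weight loss minus lean. Acadl, the long-chain acyl-CoA dehydrogenase, ranged over 273 to 366 CPM in weight loss, 296 to 345 CPM in obese and 263 to 386 CPM in lean libraries, with a log2 difference of -0.01 ± 0.11 between obese and lean fat. Acadm, the medium-chain form, ranged over 216 to 343 CPM in weight loss, 285 to 348 CPM in obese and 276 to 390 CPM in lean libraries (0.03 ± 0.14 on the log2 scale, obese minus lean). Acadvl, the very-long-chain form, ranged over 279 to 421 CPM in weight loss, 252 to 404 CPM in obese and 312 to 419.7 CPM in lean libraries (-0.16 ± 0.15). Echs1, the short-chain enoyl-CoA hydratase, had the lowest of the 9 log2 differences between obese and lean fat and was singled out after its values were seen. It held 168 to 315 CPM in weight loss, 145 to 248 CPM in obese and 222 to 424 CPM in lean libraries, a difference of -0.64 ± 0.21 for obese minus lean (edgeR adjusted p = 0.072). DESeq2 and the edgeR fit without obese replicate 5 each called it lower in obese fat, where they called 14.9% and 8.92% of all genes.

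Hadha and Hadhb encode the alpha and beta subunits of the mitochondrial trifunctional protein, and their start sites on chromosome 5 lie 273 bases apart on opposite strands. Hadha stood at 244, 223, 210.3 and 266 CPM in weight loss libraries, 263, 225, 269, 215 and 219 CPM in obese libraries, and 227, 278, 253, 286 and 256 CPM in lean libraries. Hadhb stood at 199, 221, 323 and 198 CPM in weight loss libraries, 205, 216, 225, 227 and 252 CPM in obese libraries, and 171, 238, 263, 185 and 146 CPM in lean libraries. The pair did not share an order of libraries: weight loss replicate 3 was the lowest of its group for Hadha and the highest for Hadhb. The log2 difference between obese and lean fat was -0.13 ± 0.10 for Hadha and 0.17 ± 0.17 for Hadhb, neither called (edgeR adjusted p = 0.51 and 0.61). The stretch that the promoter windows of both genes share is shown because both genes start beside it. It runs over chr5:30155003-30155230 on GRCm38.p6 (RefSeq), 228 bases on the + strand, the strand of Hadhb, with 57.0% G and C.
Hadha and Hadhb shared window: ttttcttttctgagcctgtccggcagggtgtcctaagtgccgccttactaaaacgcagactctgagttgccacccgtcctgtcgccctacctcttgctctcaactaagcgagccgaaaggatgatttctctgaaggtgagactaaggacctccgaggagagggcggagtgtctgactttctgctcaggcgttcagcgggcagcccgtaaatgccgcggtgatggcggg

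Auxiliary enzymes for unsaturated chains and the electron transfer genes gave no call in 7 of 7 cases. Among all genes the highest share called was 9.71%, between obese and lean fat. Eci1, the mitochondrial isomerase of unsaturated acyl-CoA, stood at 113, 127, 144 and 160.5 CPM in weight loss libraries, 93.1, 89.7, 100.2, 86.9 and 119 CPM in obese libraries, and 99.2, 142, 165, 106 and 120.3 CPM in lean libraries. Of the weight loss libraries only replicate 1, at 113 CPM, lay below the highest obese library, replicate 5 at 119 CPM. Its log2 difference was 0.47 ± 0.16 for weight loss minus obese (edgeR adjusted p = 0.17) and -0.37 ± 0.15 for obese minus lean (edgeR adjusted p = 0.13). Etfdh, which passes electrons to ubiquinone, held 58.5 to 81.7 CPM in weight loss, 62.5 to 78.6 CPM in obese and 47.0 to 81.5 CPM in lean libraries (0.17 ± 0.14 on the log2 scale, obese minus lean). Etfb, the beta subunit of electron transfer flavoprotein, had the highest level of all these genes per kilobase, 559 CPM per kb over all libraries.

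**Figure D2:**
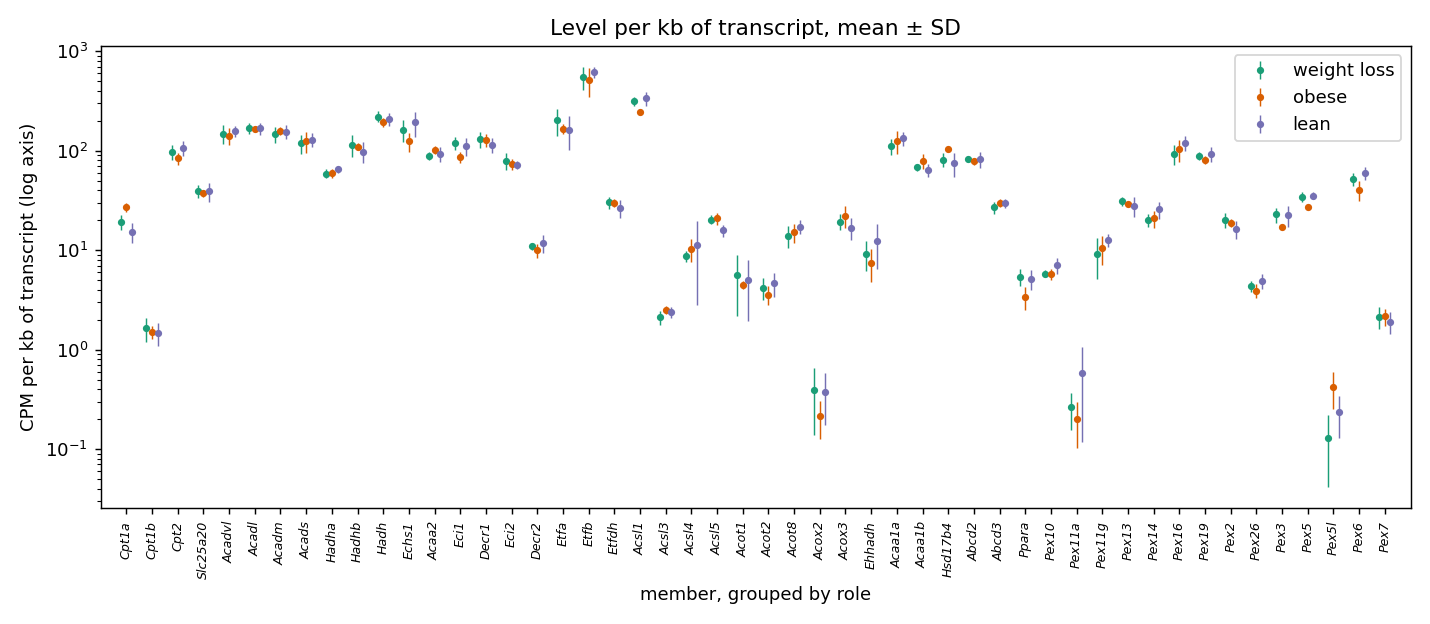
Mean CPM per kilobase of the principal transcript (y axis, log scale), with SD, of 50 of the genes tested (x axis, by role) in weight loss, obese and lean fat. Etfb and Acsl1 lie at the high end and Acox2, Pex5l and Pex11a at the low end, and the 3 group means of most genes lie close together.

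The peroxisomal enzymes and transporters gave 0 calls among 11 genes in each comparison, with a median log2 difference of -0.06 for obese minus lean. At most 9.71% of all genes were called, between obese and lean fat. Abcd2 and Abcd3 encode ATP-driven transporters that carry acyl-CoA into the peroxisome, and Abcd2 is known to be enriched in adipocytes. Abcd2 held 431 to 499.7 CPM in weight loss, 398 to 495 CPM in obese and 325 to 542 CPM in lean libraries (-0.06 ± 0.13 on the log2 scale, obese minus lean). Abcd3 held 76.3 to 105 CPM in weight loss, 90.4 to 115 CPM in obese and 83.8 to 113 CPM in lean libraries (0.006 ± 0.11). Per kilobase Abcd2 stood at 81.0 and Abcd3 at 28.9 CPM per kb over all libraries.

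The enzymes of the bifunctional steps had opposite signs. Ehhadh, the L-bifunctional protein, stood at 20.0, 21.6, 40.2 and 27.6 CPM in weight loss libraries, 17.9, 21.0, 17.8, 18.7 and 36.4 CPM in obese libraries, and 24.0, 34.4, 68.2, 31.3 and 27.3 CPM in lean libraries. Of the obese libraries 4 lay below all lean libraries, and obese replicate 5 lay above 4 of the 5. Its log2 difference for obese minus lean was -0.73 ± 0.30 (edgeR adjusted p = 0.14). Without obese replicate 5 it was -1.01 (edgeR adjusted p = 0.045, with 8.92% of all genes called). Without lean replicate 3 it was -0.39 (edgeR adjusted p = 0.35). Hsd17b4, the D-bifunctional protein, held 183 to 262 CPM in weight loss, 261 to 306 CPM in obese and 129 to 262 CPM in lean libraries, a log2 difference of 0.46 ± 0.17 for obese minus lean (edgeR adjusted p = 0.097). With single libraries left out it ran from 0.34 to 0.58. It was called without lean replicate 3 (edgeR adjusted p = 0.040), where 11% of all genes were called. Acaa1a and Acaa1b, near-identical thiolases whose separate values are uncertain for the same reason as those of Acot1 and Acot2, differed by -0.08 ± 0.17 and 0.30 ± 0.13 on the log2 scale between obese and lean fat, neither called. Acox2, an oxidase of branched chains, was low throughout, at 0.452 to 1.92 CPM in weight loss, 0.209 to 0.847 CPM in obese and 0.142 to 1.63 CPM in lean libraries.

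Among the peroxins, with Pex5l, a relative of Pex5, counted in by its symbol, 17 were tested. Of these 2, Pex5 and Pex6, were called lower in obese than in lean fat, where 3.85% of all genes were called lower. The log2 difference, obese minus lean, was below 0 for 13 of 17 and above 0 for 4, with a median of -0.27, and it was above 0 for 47.8% of all genes. For weight loss minus obese it was above 0 for 12 of 17, with a median of 0.11 and no edgeR call, and for weight loss minus lean it was above 0 for 6, with a median of -0.09 and no call. Over all genes 52.9% and 50.5% were above 0 in these comparisons. Pex5l, low in all groups, counts above 0 for obese minus lean (0.82). It counts below 0 for weight loss minus obese (-1.69) and weight loss minus lean (-0.87). The group is described by these counts, and no test was made of whether it stands apart from other genes.

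Pex5 (Entrez ID 19305, chromosome 6, 124396816 to 124415944 on GRCm38.p6) encodes the cytosolic receptor that carries most matrix enzymes to the peroxisome. It stood at 110.5, 104, 93.1 and 123 CPM in weight loss libraries, 85.3, 86.6, 90.6, 80.7 and 86.0 CPM in obese libraries, and 97.3, 115, 114, 122 and 107 CPM in lean libraries. The obese libraries lay close together, below every library of both other groups. The log2 difference was -0.37 ± 0.10 for obese minus lean (edgeR adjusted p = 0.025), 0.33 ± 0.10 for weight loss minus obese (edgeR adjusted p = 0.14) and -0.05 ± 0.10 for weight loss minus lean (edgeR adjusted p = 0.90). DESeq2 gave weight loss minus obese as 0.31 with an adjusted p of 0.049, where it called 4.56% of all genes. Pex7, the receptor for the other import signal, held 12.0 to 22.3 CPM in weight loss, 13.4 to 22.6 CPM in obese and 11.8 to 21.7 CPM in lean libraries, and differed by 0.18 ± 0.20 on the log2 scale between obese and lean fat.

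Pex6 (Entrez ID 224824, chromosome 17, 46711476 to 46725543 on GRCm38.p6) encodes an ATPase that helps pull used receptors out of the membrane. It stood at 166, 142, 152 and 199 CPM in weight loss libraries, 118, 112, 139, 99.6 and 172.5 CPM in obese libraries, and 175, 236, 166, 172 and 203 CPM in lean libraries. Obese replicate 5 lay within the lean range and the other 4 obese libraries below it. The log2 difference was -0.57 ± 0.16 for obese minus lean (edgeR adjusted p = 0.032) and 0.36 ± 0.16 for weight loss minus obese (edgeR adjusted p = 0.33). Pex26, which anchors it to the membrane, had a log2 difference of -0.33 ± 0.15 between obese and lean fat and was not called.

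The remaining peroxins were not called. Pex2, a subunit of the RING ubiquitin ligase that marks used receptors, had log2 differences of 0.20 ± 0.15 for obese minus lean and 0.31 ± 0.15 for weight loss minus lean (edgeR adjusted p = 0.44 and 0.47). Pex14, part of the docking site for the receptors, held 33.8 to 48.5 CPM in weight loss, 35.5 to 56.2 CPM in obese and 40.8 to 66.8 CPM in lean libraries, with -0.36 ± 0.17 for weight loss minus lean (edgeR adjusted p = 0.44). Pex11a, which encodes a protein of peroxisome division, was close to the detection floor, at 0.267 to 0.847 CPM in weight loss, 0.217 to 0.686 CPM in obese and 0.335 to 2.98 CPM in lean libraries, and its log2 difference of -1.54 ± 0.57 for obese minus lean had an edgeR adjusted p of 0.10 (-1.01 with an adjusted p of 0.28 without lean replicate 2). Pex5l, a relative of Pex5 known from brain, was also low, at 0.203 to 0.855 CPM in weight loss, 0.784 to 2.29 CPM in obese and 0.284 to 1.31 CPM in lean libraries, with -1.69 ± 0.53 for weight loss minus obese (edgeR adjusted p = 0.14).

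Groups that do not overlap library by library were rare. Between obese and lean fat 4 of 53 genes were separated, among them Cpt1a, higher in every obese library, and Acsl1 and Pex5, lower, and 10.3% of all genes were separated in either direction. Between weight loss and obese fat 4 of 53 were separated, among them Acsl1 and Pex5, higher in every weight loss library, and Cpt1a, lower, and 6.65% of all genes were separated. Between weight loss and lean fat none of the 53 was, and 2.29% of all genes were.

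**Figure D3:**
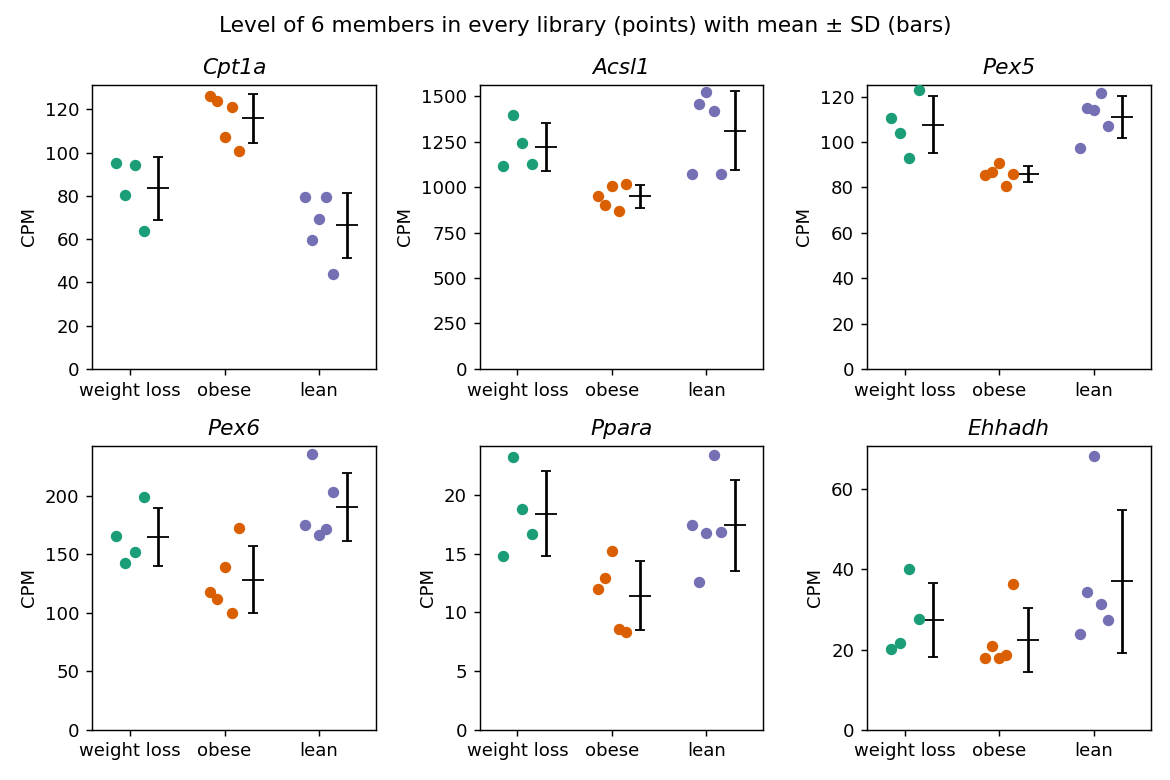
CPM of single libraries (y axis) for Cpt1a, Acsl1, Pex5, Pex6, Ppara and Ehhadh in weight loss, obese and lean fat (x axis), each point 1 library, with group means and SD. The obese libraries lie above all others for Cpt1a and below all others for Acsl1 and Pex5, and overlap other groups for Pex6, Ppara and Ehhadh.

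Ppara (Entrez ID 19013, chromosome 15, 85734910 to 85806851 on GRCm38.p6), the receptor that drives many of these genes in liver, was low. It stood at 14.8, 23.3, 18.8 and 16.7 CPM in weight loss libraries, 12.0, 12.9, 15.2, 8.59 and 8.36 CPM in obese libraries, and 17.4, 12.6, 16.8, 23.5 and 16.9 CPM in lean libraries. Apart from lean replicate 2 at 12.6 CPM and weight loss replicate 1 at 14.8 CPM, the obese libraries lay below the rest. The log2 difference was -0.61 ± 0.20 for obese minus lean (edgeR adjusted p = 0.072) and 0.69 ± 0.21 for weight loss minus obese (edgeR adjusted p = 0.14). DESeq2 called it lower in obese than in lean fat, with -0.62 and an adjusted p of 0.030, in a comparison where it called 14.9% of all genes. Without obese replicate 3 or lean replicate 2 edgeR called it too (adjusted p = 0.046 and 0.048), with 5.85% and 6.89% of all genes called.

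Promoter sequence was examined for the genes called in obese fat, which are shown because they rose or fell against each other. RefSeq promoter windows on GRCm38.p6, 250 bases before to 50 bases after a start site, were held for 42 of the 54 genes, in 48 windows. The 250 bases before the start are printed 5′ to 3′ on the gene's own strand for Cpt1a (chr19:3323051-3323300, + strand), Acsl1 (chr8:46470787-46471036, + strand), Pex5 (chr6:124415068-124415317, − strand) and Pex6 (chr17:46711226-46711475, + strand), taking the window nearest to the start of the principal transcript. Capitals mark the hexamer AGGTCA, bound by many nuclear receptors, or its other strand TGACCT.
Cpt1a: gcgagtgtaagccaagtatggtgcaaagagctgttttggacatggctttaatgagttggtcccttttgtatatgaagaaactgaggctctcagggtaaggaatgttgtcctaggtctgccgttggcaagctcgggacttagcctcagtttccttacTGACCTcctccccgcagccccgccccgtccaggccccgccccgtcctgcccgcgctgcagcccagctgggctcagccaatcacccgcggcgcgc
Acsl1: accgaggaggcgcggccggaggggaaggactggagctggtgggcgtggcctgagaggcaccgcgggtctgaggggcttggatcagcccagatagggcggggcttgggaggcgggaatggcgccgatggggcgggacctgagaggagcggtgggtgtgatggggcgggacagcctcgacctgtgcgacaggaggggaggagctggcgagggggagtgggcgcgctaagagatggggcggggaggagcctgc
Pex5: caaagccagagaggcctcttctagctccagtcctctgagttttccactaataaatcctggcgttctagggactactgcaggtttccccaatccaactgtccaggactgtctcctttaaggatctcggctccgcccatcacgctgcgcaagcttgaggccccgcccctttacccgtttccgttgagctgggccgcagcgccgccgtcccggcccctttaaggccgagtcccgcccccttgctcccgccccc
Pex6: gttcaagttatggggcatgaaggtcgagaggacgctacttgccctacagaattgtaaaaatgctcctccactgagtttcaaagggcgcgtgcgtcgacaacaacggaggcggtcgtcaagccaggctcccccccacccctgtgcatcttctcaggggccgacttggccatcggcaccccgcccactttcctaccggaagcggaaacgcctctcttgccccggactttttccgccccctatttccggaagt

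The printed Cpt1a run held the hexamer once, on the other strand, 94 bases before the start, and the runs of the 3 genes that fell held none. The hexamer occurred on either strand in the windows of 5 of the 42 genes (11.9%), against 15.3% of the 11964 tested genes with a window. The direct repeat of it (AGGTCA, any 1 letter, AGGTCA), with up to 2 of these letters changed and on either strand, occurred in 4 of the 42 genes (9.52%), against 3.72% of tested genes. No gene called in obese fat was among the 4. The matches are shown as a description of these windows, with capitals for letters that match the repeat. They lie at chr7:140116492-140116504 in Echs1, chr9:55512308-55512320 in Etfa, where the repeat reads on the strand opposite to the gene, chr9:108662142-108662154 in Slc25a20 and chr14:8258818-8258830 in Acox2, all on GRCm38.p6.
Echs1: AGGTCAcgGGTCc
Etfa: AGGgCAaAGGTaA
Slc25a20: AGGTgAaAGGTCg
Acox2: AGGaCAgAGGTgA

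Single libraries ranked together over these genes. Obese replicate 5 was the highest obese library for 30 of the 53 genes (56.6%), against 22.6% of all genes tested. Weight loss replicate 4 was the highest of its group for 27 (50.9%, against 31.7% of all genes) and lean replicate 3 for 25 (47.2%, against 23.6%). At the other end, weight loss replicate 1 was the lowest of its group for 30 of the 53, where 29.5% of all genes had it lowest. Between libraries of 1 group the median coefficient of variation of these genes was 17.2% in weight loss, 14.6% in obese and 17.8% in lean fat, against 23.4%, 18.0% and 22.9% over all genes.

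**Figure D4:**
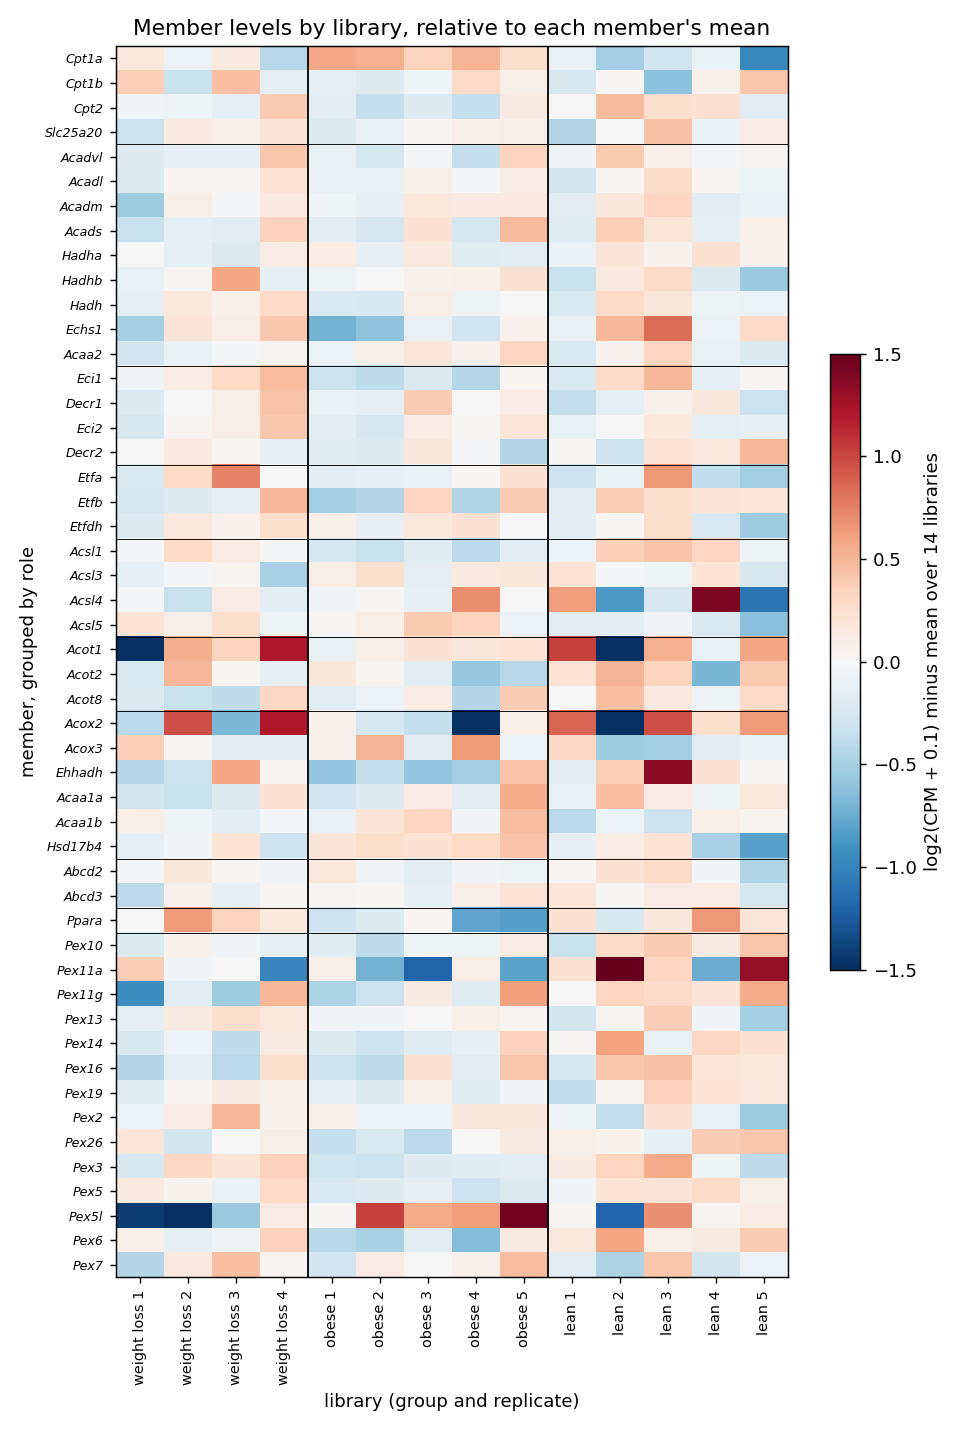
Log2(CPM + 0.1) of 50 of the genes tested (rows, by role) in each of the 14 libraries (columns, weight loss, obese, lean), less the gene's mean over the 14 libraries, with the colour scale in log2 units; the strongest colours also stand for values beyond the ends of the scale. Cpt1a is above its mean in all obese libraries, Acsl1 and Pex5 are below theirs, and obese replicate 5 and lean replicate 3 stand out as columns with many values above the mean.

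Other genes of these pathways were taken from lists that hold none of the 54. Of 24 other fatty acid oxidation genes tested, 2 rose and 6 fell between obese and lean fat. Over all genes 5.86% were called higher and 3.85% lower. Acacb, whose enzyme makes the malonyl-CoA that inhibits carnitine palmitoyltransferase, fell to 173 ± 74 CPM in obese fat, against 464 ± 146 CPM in lean fat (SD, n = 5 each; log2 -1.42 ± 0.27, edgeR adjusted p = 0.0045). Crat, the carnitine acetyltransferase, fell by 0.55 ± 0.12 on the log2 scale, Acad10, an acyl-CoA dehydrogenase family gene, by 0.79 ± 0.13, and Ivd, the isovaleryl-CoA dehydrogenase of leucine breakdown, by 0.69 ± 0.15. Acot9, a mitochondrial thioesterase, rose by 0.79 ± 0.17 and Etfrf1, a regulator of electron transfer flavoprotein, by 0.66 ± 0.15. Ivd and Etfrf1, and Vnn1 and Pdk4 of the PPAR list, are named after their values were seen. After weight loss Acad10 stood at 30.4 ± 2.5 CPM (SD, n = 4), against 17.3 ± 2.1 CPM in obese fat (SD, n = 5). Its log2 difference was 0.81 ± 0.13 (edgeR adjusted p = 0.0060). It was the only one of the 24 called in that comparison, where 1.62% of all genes were called.

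Of 33 other peroxisomal protein genes tested, 0 rose and 2 fell between obese and lean fat. Over all genes 5.86% were called higher and 3.85% lower. Ephx2, the soluble epoxide hydrolase, fell to 397 ± 45 CPM in obese fat, against 610.0 ± 156 CPM in lean fat (SD, n = 5 each; log2 -0.62 ± 0.16, edgeR adjusted p = 0.024). Pxmp2, a channel of the peroxisomal membrane, fell by 0.62 ± 0.18 on the log2 scale (edgeR adjusted p = 0.046). Ephx2 was also the only gene of this list called between weight loss and obese fat, where 1.62% of all genes were called. It stood at 685 ± 90 CPM after weight loss (SD, n = 4), a log2 difference of 0.79 ± 0.17 (edgeR adjusted p = 0.025).

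Of 17 tested genes that are known targets or partners of PPAR receptors and lie outside the 54, 4 rose and 2 fell between obese and lean fat. Over all genes 5.86% were called higher and 3.85% lower. Angptl4, a secreted inhibitor of lipoprotein lipase, stood at 883 ± 105 CPM in obese fat, against 425 ± 65 CPM in lean fat (SD, n = 5 each; log2 1.05 ± 0.17, edgeR adjusted p = 0.0017). Plin2, a lipid droplet coat protein, rose by 0.73 ± 0.16 on the log2 scale, Vnn1, a pantetheinase, by 1.31 ± 0.35 and Pdk4, a kinase that restrains pyruvate oxidation, by 1.09 ± 0.30. Ppargc1b, a coactivator of mitochondrial genes, fell by 1.73 ± 0.34 and Pparg, the main nuclear receptor of adipocytes, by 0.66 ± 0.14. Between weight loss and obese fat 2 of the 17 rose, where 1.62% of all genes were called in either direction. Among the 2 was Lpin1, a phosphatidate phosphatase, which rose by 0.58 ± 0.10 on the log2 scale. None of the 3 lists had a call between weight loss and lean fat, where 5 of all genes were called by edgeR.

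Some markers of other cell types were called higher in obese than in lean fat, as were 5.86% of all genes. Of 12 macrophage markers 7 rose in obese fat, and their sum was 1018 to 1588 CPM in obese libraries, against 466 to 1035 CPM in lean libraries. After weight loss the sum was 623 to 1398 CPM, with 0 of 12 called against obese or lean fat. Of 8 fibroblast and progenitor markers 2 rose in obese fat, with sums of 1857 to 2968 CPM in obese and 953 to 2345 CPM in lean libraries. Of 10 adipocyte markers 1 was called, Lep, which encodes leptin and stood at 1572 ± 178 CPM in obese fat, against 601 ± 125 CPM in lean fat (SD, n = 5 each). Among the rest, 0 of 8 endothelial and 0 of 9 lymphocyte markers were called in obese fat. Called higher was 1 of 7 mesothelial (Msln), 1 of 9 skeletal muscle (Pvalb) and 1 of 6 tested brown adipocyte markers (Cox7a1). Of 9 brown adipocyte markers listed, Zic1 and Elovl3 were under 1 CPM in every library. Neither these nor Ucp1 passed the filter on low counts, and Ucp1 was not under 1 CPM in every library. The 9 summed to 88.6 to 110 CPM in obese and 68.5 to 111 CPM in lean libraries. The part of any of these markers in the 4 calls was not tested.

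Of 15 epididymis markers tested, 1 was called higher in obese than in lean fat, and the library sums given above were uneven within both groups. Without obese replicates 2, 4 and 5 and lean replicate 1, a choice made after the data were seen, the log2 differences for obese minus lean were 0.89 for Cpt1a, -0.48 for Acsl1, -0.38 for Pex5 and -0.59 for Pex6, each at least as far from 0 as with all libraries. None of the 4 was then called (edgeR adjusted p = 0.11, 0.26, 0.29 and 0.20), with 2 obese and 4 lean libraries left and 0.811% of all genes called. With the mean level of these markers as a covariate, Cpt1a was still called (0.79 on the log2 scale, edgeR adjusted p = 0.027), and Acsl1 (-0.38, 0.14), Pex5 (-0.34, 0.11) and Pex6 (-0.63, 0.068) were not, where 4.83% of all genes were called. Leaving out single libraries, all 3 lower genes lost the call without obese replicate 1, 2 or 4. Acsl1 also lost it without lean replicate 2 or 4, Pex5 without lean replicate 4, and Pex6 without obese replicate 3 or lean replicate 2 or 5. The adjusted p lay between 0.051 and 0.081 in these cases. The same fits called 5.61% to 6.89% of all genes, against 9.71% with all libraries.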

How the data were processed

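RNA from the perigonadal fat of mice was sequenced, and the authors deposited a table of expected counts without normalization, 1 line per Entrez ID; 34.8% of its values are not whole numbers. The genome build was mm10 per the submitters' processing notes. The sources used here do not give aligner, counter, annotation or the treatment of shared reads. The 36172 lines held 35794 IDs, 74 of them repeated, and no repeated ID had reads on more than 1 of its lines. RefSeq gave symbols for 32919 IDs, GENCODE M21 for 24, and 2851 had none. The genes and lists were chosen with earlier results of these data known.

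Weight loss replicate 5 (230 counts) was dropped by requiring 1000000 counts, a limit chosen with its total known. Counts were rounded and filtered by filterByExpr, scaled by TMM and fitted in 1 model of 3 groups with edgeR 4.0.16 (glmQLFit, glmQLFTest, two-sided) in R 4.3.3. P-values were Benjamini-Hochberg adjusted over 15208 genes at a threshold of 0.05. They measure the spread between these samples, which the design text calls independent. The standard error was derived by dividing the log2 fold change, without its sign, by the root of the F value. CPM is the count over the TMM-scaled library size, and the per-kilobase value divides it by the length of the principal transcript. DESeq2 1.42.0, limma-voom (limma 3.58.1), other scalings and filters, a replicate block, an epididymis covariate and each library left out were alternatives. Genes were named if called or if on a list of 22 taken in every case. In a comparison with fewer than 4 calls, the 4 genes of smallest p were named too. The rule gave 28 of the 54 genes, and later counts of named genes refer to these. Up to 4 called genes of smallest p were named per pathway list and comparison. Hadhb, Slc25a20, Acsl3, Etfa, Etfb, Acox2, Pex26 and the cell type markers were named outside this rule without a mark. Further names outside it are marked in the text. Replicate numbers were not used to pair samples, since the correlation of deviations was over 0.1 for only 4 of 13 same-numbered pairs. Counting error was not estimated apart from other spread. Genes of low level rest on few counts, with 2 of Acox2, 14 of Acot1 and 61.5 of Cpt1b in the lowest library. Tables and plots used Python 3.11.15, pandas 2.3.3 and matplotlib 3.10.9. Some genes are counted in the totals but not reported here by name or drawn.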

Additional observations from a re-analysis of the deposited data

Results flagged for a closer look

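In each of 84 groups of 4 or 5 libraries, 3 for each of 28 named genes, the highest and the lowest library were compared with their nearest neighbour, and 6 stood far from the rest. Chance gives about 1 in 20 such groups. In weight loss replicate 4, Cpt2 stood at 291 CPM, where the next library had 216.5 CPM, and Acadvl at 421 CPM, where the next had 294.6 CPM. Acadvl in lean replicate 2 stood at 419.7 CPM, with the next lean library at 337 CPM. Ehhadh stood at 36.4 CPM in obese replicate 5, with the next obese library at 21.0 CPM, and at 68.2 CPM in lean replicate 3, with the next lean library at 34.4 CPM. Pex14 in obese replicate 5 stood at 56.2 CPM, with the next obese library at 40.3 CPM.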

How the results depend on the processing

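Over 28 named genes and 3 comparisons, 84 log2 fold changes were recomputed under the alternatives, which gave 2013 values. Of these, 1982 kept their side of the threshold, 22 lost the call and 9 gained one. The 22 all belong to the 4 fold changes that were called as reported, and most of the 1982 were uncalled in both fits. No called result changed sign, while 29 of the 84 results, none of them called as reported, changed sign under some alternative. Genes higher in obese than in lean fat numbered 1 as reported (5.86% of all genes). There were 2 with DESeq2 (Cpt1a and Acsl5, 8.24%) and 2 with the replicate number as a block (the same 2, 6.75%). The count was 0 without the 4 libraries richest in epididymis markers (0.603%) and 1 to 3 with single libraries left out (3.32% to 6.54%). Genes lower in obese fat numbered 3 as reported (3.85% of all genes) and 5 with DESeq2 (Echs1 and Ppara in addition, 6.66%). The count was 0 with the epididymis covariate (1.42%) and 0 without the 4 richest libraries (0.208%). It was 0 to 5 with single libraries left out (2.01% to 4.82%). The lowest of these, 0, came without obese replicate 1, 2 or 4 (2.69%, 2.01% and 2.32% of all genes). The count was 1 (Pex6) without lean replicate 4 (2.96%) and 5 without obese replicate 5 (3.88%). Genes higher after weight loss than in obese fat numbered 0 as reported (0.736% of all genes) and 1 (Pex5) with DESeq2 (1.77%). Cpt1a was called under all 23 alternatives chosen at the outset, Pex5 under 18, Acsl1 under 17 and Pex6 under 16. Replicate numbers were not used to pair the samples. Correlations between same-numbered libraries ran from -0.55 to 0.40, which does not show that same-numbered samples were unrelated. The block gave no other change of a count beyond 1.5 times. Pex11a has no value under the stricter filter on low counts, which it did not pass. The causes of these changes were not tested. With 4 or 5 libraries a group, small differences could not be told from none.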
